A study of Homo sapiens with 27 samples.

Results

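The genes described here are the proneural basic helix-loop-helix (bHLH) transcription factors NEUROG1, NEUROG2, NEUROD2, NEUROD4, NEUROD6, OLIG1, OLIG2, NHLH1, and NHLH2. They were chosen by symbol, through the Ensembl identifier of each row. Of the 9 genes, 8 had a row among the 44852 genes measured, and NEUROD6 was not analysed here. The genes were followed in 27 bulk RNA-seq libraries from H1 cells, an established human embryonic stem cell line, differentiated toward photoreceptor progenitors on recombinant laminin. Cells grew on LN523, LN323, or LN521 coatings and were collected at days 2, 22, and 32, with 3 replicates in each of the 9 groups. The study's text pairs LN523 and LN323 with LN521 and uses LN521 by itself, whereas the sample labels pair LN523 and LN521 with LN323, so each matrix is named here by its leading isoform. All groups received NutriStem medium to day 2, and those of days 22 and 32 then received neural induction medium with SB431542 and CKI-7, and afterwards a photoreceptor medium with BDNF, CNTF, retinoic acid, and DAPT, an inhibitor of the gamma-secretase that activates Notch receptors. All groups therefore shared the cell line, the day 2 groups had received neither later medium, and every group of days 22 and 32 had received DAPT. Each replicate number stood for 1 sequencing lane, and the labels do not say whether replicates were separate cultures, so p-values measure only the spread between these libraries, which may be technical.

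Proneural bHLH factors start neurogenesis. They bind E-box DNA, written CANNTG, as dimers with the widely expressed E proteins TCF3, TCF4, and TCF12. NEUROG2 and NEUROG1 act in dividing progenitors, where they turn on Notch ligands such as DLL1 and a second wave of factors that includes the NEUROD genes and NHLH1. Notch signaling counters them in neighboring cells through HES and HEY repressors, and ID proteins capture the E protein partners. In the embryonic retina, NEUROG2 marks progenitors that enter neurogenesis, OLIG2 marks progenitors in their last divisions, and NEUROD4 takes part in bipolar and amacrine cell formation. OLIG1 and OLIG2 also specify oligodendrocytes elsewhere in the nervous system.

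The RefSeq promoters of 3 genes that later rose on LN523 (NEUROG2, NEUROD4, and NHLH1) and of NEUROG1, the member that differed between matrices at day 22, are shown here. They are given as the 250 bases before the transcription start in build GRCh38.p14, written 5′ to 3′ on the strand of the gene, with E-boxes in capitals. They lie at chr4:112516181-112516430 (minus strand), chr12:55019724-55019973 (plus strand), chr1:160366821-160367070 (plus strand), and chr5:135535965-135536214 (minus strand), in that order.
NEUROG2: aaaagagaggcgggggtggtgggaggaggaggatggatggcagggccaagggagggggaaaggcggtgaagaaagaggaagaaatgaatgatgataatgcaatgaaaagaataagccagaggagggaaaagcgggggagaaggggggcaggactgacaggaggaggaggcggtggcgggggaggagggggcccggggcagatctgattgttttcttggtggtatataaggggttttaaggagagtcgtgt
NEUROD4: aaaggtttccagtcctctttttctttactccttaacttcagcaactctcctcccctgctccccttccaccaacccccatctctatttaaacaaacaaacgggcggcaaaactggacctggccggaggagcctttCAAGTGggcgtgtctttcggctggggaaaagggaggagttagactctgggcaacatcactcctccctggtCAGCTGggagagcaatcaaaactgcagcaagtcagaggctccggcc
NHLH1: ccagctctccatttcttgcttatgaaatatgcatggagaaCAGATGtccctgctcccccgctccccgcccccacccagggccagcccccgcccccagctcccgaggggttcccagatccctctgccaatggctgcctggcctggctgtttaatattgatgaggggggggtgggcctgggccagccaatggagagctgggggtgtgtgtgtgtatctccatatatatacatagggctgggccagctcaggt
NEUROG1: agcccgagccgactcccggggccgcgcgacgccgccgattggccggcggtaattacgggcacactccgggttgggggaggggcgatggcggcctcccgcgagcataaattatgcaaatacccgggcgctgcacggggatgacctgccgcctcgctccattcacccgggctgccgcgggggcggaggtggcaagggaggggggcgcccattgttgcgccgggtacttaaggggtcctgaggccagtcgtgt
The stretch before the start held 2 E-boxes in NEUROD4, 1 in NHLH1, and 0 in both NEUROG2 and NEUROG1. Over 35116 RefSeq promoter windows of 300 bases, which run past the start and were searched on both strands, 68.7% held an E-box. In that longer window NEUROD4 and NHLH1 held 2 E-boxes each, and NEUROG2 and NEUROG1 held 0. The more specific forms CAGCTG and CAGATG, which overlap the general motif, stood in 17.9% and 14.7% of windows. NEUROD4 carried one CAGCTG and NHLH1 one CAGATG, and GTGGGAA, a sequence bound by the Notch partner RBPJ, stood in 6.25% of windows but in none of these 4. Promoters of NHLH2, NEUROD2, and NEUROD6 are not printed. Before the start, NEUROD6 held 4 E-boxes, NEUROD2 held 3, and the NHLH2 promoters held 2 and 1. GTGGGAA stood in 1 NHLH2 promoter, at -190 from the start. OLIG1 and OLIG2 are named only.

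The genes are protein coding and lie, in GENCODE 44 on GRCh38, at chr5:135534282-135535964 (NEUROG1, minus strand), chr4:112513516-112516180 (NEUROG2, minus), chr17:39603536-39609777 (NEUROD2, minus), chr12:55019974-55030017 (NEUROD4, plus), chr21:33070141-33072413 (OLIG1, plus), chr21:33025935-33029196 (OLIG2, plus), chr1:160367071-160372846 (NHLH1, plus), and chr1:115836377-115843917 (NHLH2, minus). Exons of NEUROG2 overlapped the antisense gene NEUROG2-AS1 over 4.01% of their length, and those of OLIG1 overlapped the antisense RNA ENSG00000227757 over 8.84%. Whether reads were counted by strand is not given in the sources used here, so these shares cannot be assigned to one gene.

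Libraries held 25620624 to 47340990 counts. A count of 3, taken as the detection floor, equaled 0.0304 to 0.283 TPM depending on gene and library, where TPM is a level scaled to gene length and to 1000000 per library. Of the non-zero counts of all genes, 68.8% were even. If the mates of a fragment were counted separately, which is not given in the sources used here, counting error is larger than these counts imply. The 4 pluripotent cell markers summed to 3238 to 3828 TPM at day 2, and the 6 retinal progenitor markers summed to 2.21 to 5.62 TPM at day 2 and 680 to 2210 TPM later. Replicate 1 on LN521 stood apart from replicates 2 and 3. It held 171 TPM of the pluripotent cell markers at day 22 and 31.7 TPM at day 32, while the other late libraries held at most 6.00 TPM. Its neuron markers summed to 654 TPM at day 22 beside 126 and 95.3 TPM in replicates 2 and 3, and its telencephalic neuron markers to 63.4 TPM beside 14.3 and 10.5 TPM. Calls of members and correlations that rest on it are therefore given with and without it. Other member values that involve LN521 are not all repeated without it.

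At day 2 the proneural genes other than NHLH2 averaged at most 0.444 TPM on every matrix. The summed level of the 8 genes was 1.74 ± 0.290 TPM on LN523, 1.62 ± 0.317 TPM on LN323, and 2.14 ± 0.322 TPM on LN521 (mean ± SD, n = 3). NHLH2, a regulator best known from hypothalamic neurons, had the highest mean of the 8 genes on each matrix and lay between 0.446 and 1.28 TPM in the 9 libraries. At day 22 the sum was 4.30 ± 1.90 TPM on LN523, 6.13 ± 3.21 TPM on LN323, and 22.1 ± 24.6 TPM on LN521. At day 32 it was 67.3 ± 32.4 TPM on LN523, 18.8 ± 8.29 TPM on LN323, and 56.8 ± 57.0 TPM on LN521. The large SDs on LN521 came from 1 library each, replicate 1, with 49.8 TPM at day 22 and 122 TPM at day 32. The other LN521 libraries of day 32 held 27.6 and 20.3 TPM. The LN523 libraries of day 32 held 97.0, 72.1, and 32.8 TPM and the LN323 libraries 12.5, 28.2, and 15.7 TPM, so LN523 lay above LN323 in every library and overlapped LN521. In bulk RNA, fewer cells of a type and less RNA per cell cannot be told apart, and this holds for all levels given here.

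**Figure D1:**
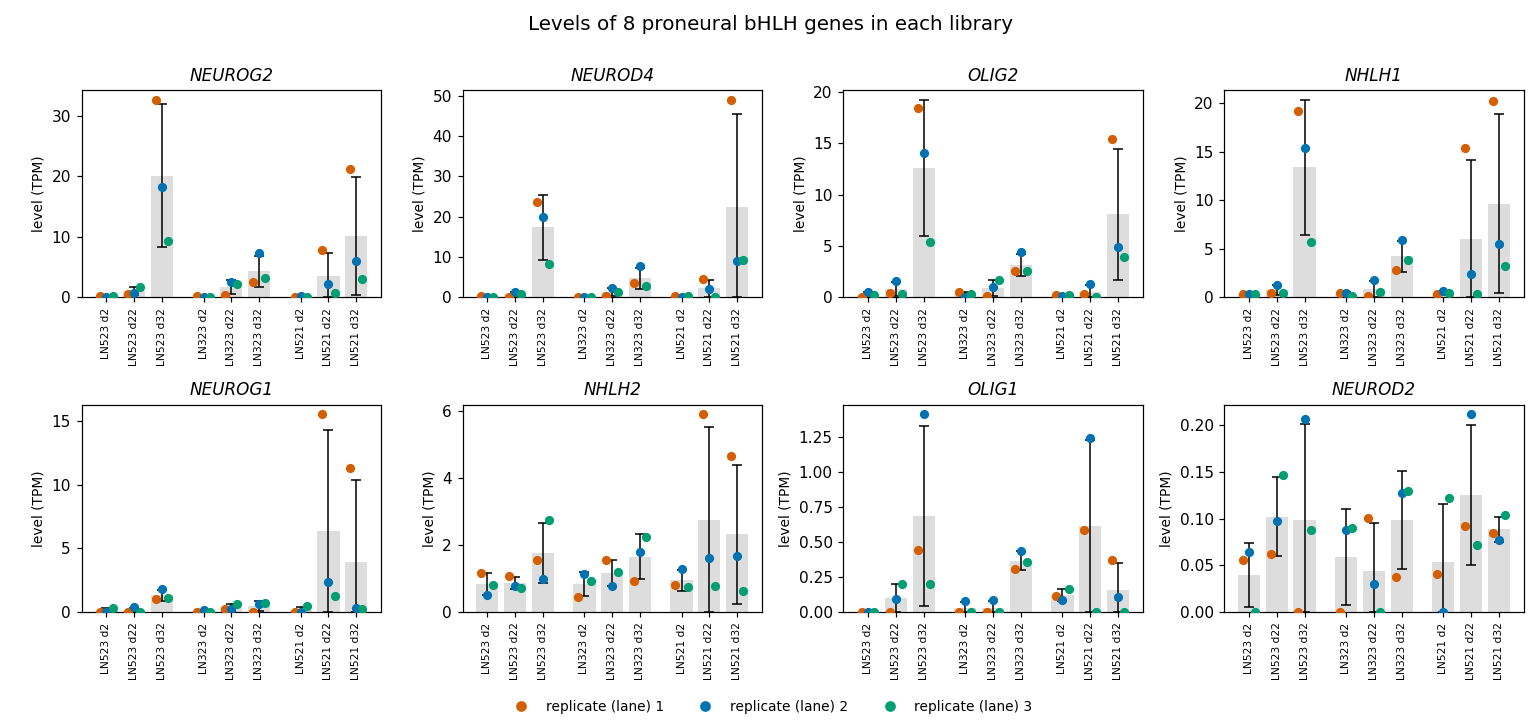
Level in TPM of each of the 8 genes in the 27 libraries, by matrix and day (d). Gray bars are means, black bars SD (n = 3, the lower arm ending at 0), and colored points are replicates 1, 2, and 3. NEUROG2, NEUROD4, OLIG2, and NHLH1 were highest at day 32, whereas the high points of NEUROG1 and NHLH2 belonged to LN521 replicate 1. The vertical scales differ between genes.

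On LN523, the step from day 22 to day 32 raised 4 of the 8 genes past an adjusted p of 0.05 (quasi-likelihood test of edgeR, adjusted by Benjamini-Hochberg over every gene tested), where 0.343% of all genes were called higher. They were NEUROG2, NEUROD4, OLIG2, and NHLH1. The median log2 fold change of the 8 genes was 3.70, beside 0.0023 over all genes tested. Here and below, a lack of overlap between groups describes levels, as the share of all genes without overlap was not computed. The same sign in every lane largely follows from a lack of overlap and adds little to it.

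NEUROG2, which commits progenitors to neurogenesis, measured 0.511, 0.710, and 1.75 TPM in replicates 1, 2, and 3 of LN523 at day 22. At day 32 it measured 32.7, 18.3, and 9.35 TPM. Each day 32 library was above each day 22 library. The log2 fold change was 4.06 ± 0.81 (SE), with an adjusted p of 0.00381, and was positive in 3 of 3 lanes.

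NEUROD4, which acts after the neurogenins in young neurons, measured 0, 1.34, and 0.637 TPM at day 22 and 23.7, 19.9, and 8.32 TPM at day 32 on LN523. The ranges did not overlap, and the lowest day 32 library was again replicate 3. The log2 fold change was 4.58 ± 0.89 (SE, adjusted p = 0.003, 3 of 3 lanes).

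OLIG2 measured 0.407, 1.58, and 0.341 TPM at day 22 and 18.4, 14.1, and 5.34 TPM at day 32 on LN523. NHLH1, a factor of newly born neurons, measured 0.380, 1.27, and 0.446 TPM and then 19.2, 15.3, and 5.63 TPM. For both genes the days did not overlap, and replicate 3 was the lowest library of day 32. The log2 fold changes were 4.22 ± 0.85 for OLIG2 (SE, adjusted p = 0.00464) and 4.21 ± 0.76 for NHLH1 (SE, adjusted p = 0.00138), each in 3 of 3 lanes.

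These 4 calls depended on the method and on single libraries. In limma on log2(TPM + 0.1) all 4 were lost (adjusted p = 0.126 to 0.155, with 3 of all genes called), DESeq2 lost NEUROD4 (adjusted p = 0.192), and limma on log2(TPM + 1) lost NHLH1 (adjusted p = 0.102). When genes were kept by filterByExpr, a stricter filter on low counts, the fold changes remained between 4.06 and 4.57 on the log2 scale, the adjusted p-values were 0.11 to 0.227, and the number of all genes called went from 171 to 0. Without LN523 replicate 1 of day 22, NEUROG2 (adjusted p = 0.115) and OLIG2 (adjusted p = 0.104) were not called. OLIG2 was also not called without replicate 3 of day 22 (adjusted p = 0.0722).

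On LN521, 2 of the 8 genes rose from day 22 to day 32, NEUROD4 and OLIG2, where 0.196% of all genes were called higher. NEUROD4 measured 4.37, 2.06, and 0 TPM at day 22 and 49.1, 9.09, and 9.19 TPM at day 32. OLIG2 measured 0.286, 1.24, and 0 TPM and then 15.4, 4.89, and 3.87 TPM. In both genes all 3 day 32 libraries lay above all day 22 libraries, with replicate 1 far above the others at day 32. The log2 fold changes were 3.49 ± 0.82 for NEUROD4 (SE, adjusted p = 0.0385) and 4.21 ± 0.87 for OLIG2 (SE, adjusted p = 0.0105). Without replicate 1 of day 32 they were 2.51 (adjusted p = 0.477) and 3.26 (adjusted p = 0.146), and neither was called. Without replicate 3 of day 22 neither was called (adjusted p = 0.108 and 0.0514), at log2 fold changes of 2.86 and 3.61. The call of NEUROD4 was also lost, at folds close to the one reported, without replicate 2 of day 22 (3.55, adjusted p = 0.207), without replicate 3 of day 32 (3.62, adjusted p = 0.0589), and without the lane block (3.36, adjusted p = 0.0974).

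NEUROG2 and NHLH1 gave smaller values for that step on LN521. NEUROG2 measured 7.72, 2.15, and 0.690 TPM at day 22 and 21.2, 6.06, and 3.03 TPM at day 32, a log2 fold change of 1.53 ± 0.70 (SE, adjusted p = 0.726). NHLH1 measured 15.3, 2.36, and 0.352 TPM and then 20.2, 5.46, and 3.21 TPM, a log2 fold change of 0.84 ± 0.65 (SE, adjusted p = 0.988). Both were already high in replicate 1 at day 22, the library with neuron and pluripotent cell markers. Without that library, NHLH1 had a log2 fold change of 2.97 and was called (adjusted p = 0.0454).

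On LN323, 0 of the 8 genes passed the threshold from day 22 to day 32, where 0.0424% of all genes were called. Unadjusted p-values were under 0.05 for 3 of the 8, beside 1280 of all 44852 genes, and DESeq2 also called 0 members. NHLH1 measured 0.123, 1.76, and 0.567 TPM at day 22 and 2.83, 5.93, and 3.82 TPM at day 32, with no overlap and a log2 fold change of 2.39 ± 0.70 (SE, adjusted p = 0.468). NEUROD4 measured 0.159, 2.18, and 1.15 TPM and then 3.38, 7.69, and 2.86 TPM, and its log2 fold change was 1.80 ± 0.78 (SE, adjusted p = 1). OLIG2 measured 0.0940, 1.01, and 1.63 TPM and then 2.58, 4.41, and 2.53 TPM, with a log2 fold change of 1.56 ± 0.78 (SE, adjusted p = 1). For NEUROD4 and OLIG2 too, every day 32 library was above every day 22 library, by a narrow margin. NEUROG2 measured 0.275, 2.46, and 2.22 TPM and then 2.46, 7.25, and 3.09 TPM, with days that touched and a log2 fold change of 1.16 ± 0.72 (SE, adjusted p = 1). In a fit to those 6 libraries alone, NHLH1, NEUROD4, and OLIG2 were called, with 350 genes in all.

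Whether the step differed between LN523 and LN323 was tested as an interaction. The difference in log2 change was 2.90 ± 1.03 for NEUROG2, 2.78 ± 1.11 for NEUROD4, 2.66 ± 1.09 for OLIG2, and 1.82 ± 0.97 for NHLH1 (SE), larger on LN523 in 3 of 3 lanes for each gene. No member passed adjustment over all genes (0 of 8, with 0% of all genes called and adjusted p-values of 1), and DESeq2 called 0. Unadjusted p-values were under 0.05 for 3 members, beside 901 of all 44852 genes. A fit with only the 4 groups compared called NEUROG2, NEUROD4, and OLIG2 among 44 genes. The interactions of LN523 with LN521 and of LN323 with LN521 also called 0 of 8 members each (0% of all genes), and DESeq2 called 0 members. Unadjusted p-values there were under 0.05 for 3 and 2 members, beside 2142 and 1540 of all 44852 genes.

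**Figure D2:**
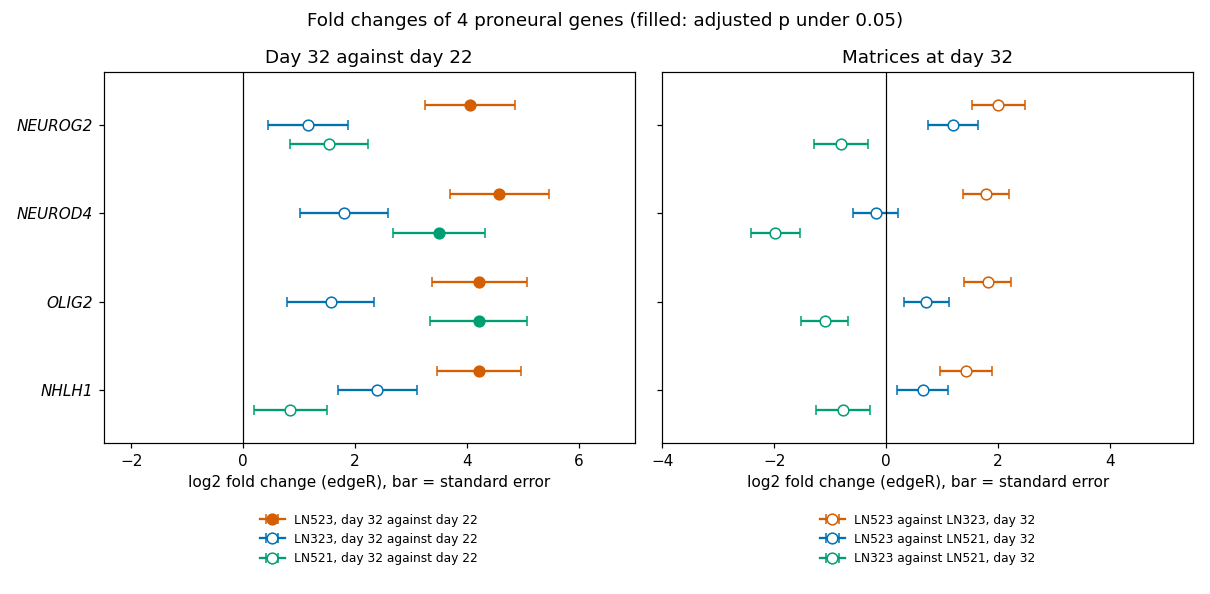
Log2 fold changes (edgeR, bars are standard errors) of NEUROG2, NEUROD4, OLIG2, and NHLH1 from day 22 to day 32 on each matrix (left) and between matrices at day 32 (right). Filled points have an adjusted p under 0.05. All 4 genes are filled for LN523, 2 are filled for LN521 and 0 for LN323, and 0 points are filled on the right.

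At day 32 the study asked how the laminin isoforms differ. Its own DESeq2 test reported differing genes between LN523 and LN323 at a false discovery rate under 0.05, with CRX higher on LN523. In the edgeR fit used here, 0 of the 8 genes had an adjusted p under 0.05 for this pair, and neither did any other gene (0%). The levels did not overlap for NEUROG2, NEUROD4, OLIG2, and NEUROG1, a description without a test. For the first 3 of these, the lowest LN523 libraries held 9.35, 8.32, and 5.34 TPM, and the highest LN323 libraries 7.25, 7.69, and 4.41 TPM. NEUROG1 held at least 1.01 TPM on LN523 and at most 0.725 TPM on LN323. The log2 fold changes were 2.01 ± 0.47 for NEUROG2, 1.80 ± 0.41 for NEUROD4, and 1.82 ± 0.42 for OLIG2 (SE, adjusted p = 0.502 for each). For NHLH1, whose libraries overlapped, the log2 fold change was 1.42 ± 0.47 (SE, adjusted p = 1). NEUROG2, NEUROD4, OLIG2, and NHLH1 were positive in 3 of 3 lanes and had an unadjusted p under 0.05. Of all 39377 genes, 747 had an unadjusted p under 0.05.

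The call for this pair changed with the method. DESeq2 called NEUROG2 (adjusted p = 0.00608), NEUROD4 (adjusted p = 0.0127), and OLIG2 (adjusted p = 0.00268) among 823 genes, and a fit without the LN521 libraries called these and NHLH1 among 1035 genes. Without lane 1, which holds the deviating LN521 library, edgeR called the same 3 genes as DESeq2, with log2 fold changes of 1.43 to 1.48.

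LN523 and LN521 also gave 0 called of 8 at day 32, where 0.0609% of all genes were called. An unadjusted p under 0.05 was found for 1 member, beside 2033 of all 39377 genes, and DESeq2 called 0 members. NEUROG2 had a log2 fold change of 1.20 ± 0.45 (SE, adjusted p = 0.614), OLIG2 of 0.72 ± 0.40 (SE, adjusted p = 0.988), NHLH1 of 0.66 ± 0.46 (SE, adjusted p = 0.988), and NEUROD4 of -0.18 ± 0.41 (SE, adjusted p = 1). Replicate 1 on LN521 exceeded all LN523 libraries in NEUROD4 (49.1 TPM) and NHLH1 (20.2 TPM), and in NEUROG2 (21.2 TPM) and OLIG2 (15.4 TPM) it stood above 2 of them. Without that library NEUROG2 (log2 fold change 1.99, adjusted p = 1e-06), NHLH1 (1.49, adjusted p = 0.00138), and OLIG2 (1.26, adjusted p = 0.0053) were called higher on LN523, along with 1907 genes in all, and NEUROD4 turned positive (0.68, adjusted p = 0.165).

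LN323 and LN521 gave 0 called of 8 at day 32, where 0.117% of all genes were called. Unadjusted p-values were under 0.05 for 2 members, beside 1762 of all 39377 genes. NEUROD4 was lowest relative to LN521, with a log2 fold change of -1.98 ± 0.44 (SE, adjusted p = 0.0789) and no overlap between 2.86 to 7.69 TPM on LN323 and 9.09 to 49.1 TPM on LN521. DESeq2 called it (adjusted p = 0.00333), as did edgeR without LN521 replicate 1 (log2 fold change -1.24, adjusted p = 7.93e-05) or without LN521 replicate 2 (-2.64, adjusted p = 0.0362). OLIG2 had a log2 fold change of -1.10 ± 0.42 (SE, adjusted p = 0.769), and NEUROG2 (-0.81 ± 0.48) and NHLH1 (-0.77 ± 0.48) turned to 0.11 and 0.15 without lane 1.

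The share each gene took of the members' summed level at day 32 is described next. NEUROD4 made up 40.1%, 32.9%, and 45.3% of the summed TPM of the 8 genes in LN521 replicates 1, 2, and 3, beside 24.4%, 27.7%, and 25.4% on LN523 and 27.0%, 27.2%, and 18.1% on LN323. It was the leading member in all 3 LN521 libraries, and also in LN523 replicate 2 and LN323 replicates 1 and 2. NEUROG2 made up 33.8%, 25.3%, and 28.5% on LN523, 19.6%, 25.7%, and 19.6% on LN323, and 17.3%, 21.9%, and 14.9% on LN521. Shares of NEUROD4 on LN521 did not overlap those on the other matrices, a description without a test. By mean level on LN523 the order was NEUROG2 (20.1 ± 11.8 TPM), NEUROD4 (17.3 ± 8.01 TPM), NHLH1 (13.4 ± 6.98 TPM), and OLIG2 (12.6 ± 6.67 TPM, mean ± SD, n = 3), and each neighbor in this order lay within the spread of the next.

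The highest values of NEUROG1 and NHLH2 belonged to LN521 replicate 1. NEUROG1, the close relative of NEUROG2, measured 15.5, 2.38, and 1.22 TPM on LN521 at day 22 and 11.3, 0.289, and 0.259 TPM at day 32. On LN523 it measured 0, 0.365, and 0 TPM at day 22 and 1.01, 1.80, and 1.10 TPM at day 32, and on LN323 it never exceeded 0.725 TPM. The LN523 libraries of these days did not overlap, and the log2 fold change was 3.34 ± 1.31 in 3 of 3 lanes (SE, adjusted p = 0.747). The unadjusted p of 0.0138 made NEUROG1 the fifth member under 0.05 in that comparison, beside 1963 of all 44852 genes. All 3 LN521 libraries of day 22 were above all LN523 and LN323 libraries of that day.

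At day 22 NEUROG1 was lower on LN523 than on LN521, by a log2 fold change of -5.18 ± 0.89 (SE, adjusted p = 0.00013, 3 of 3 lanes), the single call among 8 members where 0.394% of all genes were called lower. It was also lower on LN323 than on LN521 (-3.39 ± 0.82, SE, adjusted p = 0.0177, 3 of 3 lanes), again the single call of 8, with 0.311% of all genes called lower. Without LN521 replicate 1 the values were -3.66 (adjusted p = 0.259) and -1.52 (adjusted p = 1), and neither call held. Without the lane block the log2 fold changes were -5.61 (adjusted p = 0.257) and -4.02 (adjusted p = 0.57), fits in which 1 and 0 of all genes were called. In the LN323 comparison, leaving out any one of the LN323 libraries also ended the call (adjusted p = 1, 1, and 0.0979 without replicates 1, 2, and 3), and in the LN523 comparison so did leaving out LN523 replicate 3 (adjusted p = 0.163). Values for NHLH1 at day 22 were -2.62 ± 0.74 for LN523 against LN521 (SE, adjusted p = 0.0846) and -2.25 ± 0.75 for LN323 against LN521 (SE, adjusted p = 0.258). Those for NEUROG2 were -1.91 ± 0.71 (SE, adjusted p = 0.493) and -1.07 ± 0.71 (SE, adjusted p = 1). LN523 and LN323 did not give a call at day 22 (0 of 8, 0.013% of all genes, and 0 by DESeq2). For this pair 0 members had an unadjusted p under 0.05, beside 514 of all 38609 genes. Leaving out LN523 replicate 2 gave a call of NEUROG1. NHLH1 was called lower on LN523 than on LN521 without LN523 replicate 2 (adjusted p = 0.00917), LN521 replicate 2 (adjusted p = 0.00192), or LN521 replicate 3 (adjusted p = 0.00039). It was called lower on LN323 than on LN521 without LN521 replicate 2 (adjusted p = 0.0111) or 3 (adjusted p = 0.00191). Over all fits leaving out 1 library, its log2 fold changes ranged from -3.89 to -0.15 and from -3.64 to -0.19, in the same order. Without LN521 replicate 1, which held 15.3 TPM of NHLH1, no member was called in either comparison.

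NHLH2 was the one member measured well above the floor in all 27 libraries. It measured 5.91, 1.60, and 0.777 TPM on LN521 at day 22 and 4.65, 1.66, and 0.631 TPM at day 32, and lay between 0.446 and 2.74 TPM in all libraries of the other matrices. It passed the threshold in none of the 18 comparisons.

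From day 2 to day 22 NEUROG2 was called higher on every matrix. The share of all genes called higher was 11.5% on LN523, 11.8% on LN323, and 10.8% on LN521, and the members called were 1, 2, and 4 of 8. NEUROG2 stood at 0 to 0.249 TPM in the 9 libraries of day 2. Its log2 fold changes were 3.03 ± 0.94 on LN523 (SE, adjusted p = 0.0125), 4.41 ± 0.96 on LN323 (SE, adjusted p = 0.00026), and 4.97 ± 0.95 on LN521 (SE, adjusted p = 5.28e-05), each in 3 of 3 lanes. The LN523 call was lost without replicate 3 of day 22 (adjusted p = 0.211) or replicate 2 of day 2 (adjusted p = 0.0993), and NEUROD4 was called there as well without replicate 1 of day 22. Because day 2 counts were 0 to 6 per library, the sizes of these folds are imprecise.

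NEUROD4 was called higher at day 22 on LN323 (log2 fold change 5.18 ± 1.15, SE, adjusted p = 0.000351) and LN521 (3.07 ± 0.91, SE, adjusted p = 0.0105), but the LN521 call was lost without replicate 1 of day 22 (adjusted p = 0.118). On LN521 NHLH1 (3.26 ± 0.77, SE, adjusted p = 0.00101) and NEUROG1 (5.13 ± 1.40, SE, adjusted p = 0.00474) were called as well. Both calls were lost without replicate 1 of day 22, at adjusted p-values of 0.199 and 0.0805, which left NEUROG2 as the single call on LN521. The NEUROD4 and NEUROG1 calls on LN521 were also lost without replicate 1 of day 2 (adjusted p = 0.0804 and 0.0755) or replicate 2 of day 2 (adjusted p = 0.109 and 0.0503).

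At day 2 itself, 0 of 8 members differed between matrices in the 3 comparisons, where 0.233% of all genes were called for LN523 against LN323, 0.624% for LN523 against LN521, and 2.5% for LN323 against LN521. The counts of members at an unadjusted p under 0.05 and by DESeq2 were also 0. Of all 38650 genes, 921, 3118, and 4401 had an unadjusted p under 0.05, in the same order. NHLH2, with 38 to 102 counts per library, had log2 fold changes of 0.018 to 0.072 between matrices (SE 0.46 to 0.47), and the other members had too few counts at day 2 for precise folds.

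NEUROD2 and OLIG1 stayed low throughout. NEUROD2, a factor of maturing cortical neurons, had at most 14 counts (0.212 TPM) in any library, and OLIG1 at most 30 counts (1.41 TPM on LN523 at day 32 and 1.24 TPM on LN521 at day 22). OLIG1, the neighbor of OLIG2 on chromosome 21, measured 0.443, 1.41, and 0.201 TPM on LN523 at day 32, where OLIG2 measured 18.4, 14.1, and 5.34 TPM. Neither NEUROD2 nor OLIG1 was called in any of the 18 comparisons.

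Over the 18 libraries of days 22 and 32, the levels of NEUROG2, NEUROD4, OLIG2, and NHLH1 ran together, with Pearson's r of log2(TPM + 1) between 0.79 for OLIG2 with NHLH1 and 0.94 for NEUROG2 with NHLH1. NEUROG1 and NHLH2 had r = 0.83, and NEUROG1 with OLIG2 had r = 0.22. Without the 2 late libraries of LN521 replicate 1, the 4 genes had r of 0.93 to 0.97 over 16 libraries, NEUROG1 with NHLH2 had r = 0.37, and NEUROG1 with OLIG2 had r = 0.38. These correlations are descriptions: the libraries share a common change with day and differ in depth, and 2 of the 18 are the deviating LN521 libraries.

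Among 20546 genes with a mean of at least 1 TPM in a late group, those most like NHLH1 were CELF3 (r = 0.98), CPLX2 (r = 0.98), and ST18 (r = 0.98), the first an RNA-binding protein of neurons and the second a regulator of synaptic vesicle release. Those most like NEUROD4 were VXN, SYP, and NEUROD1 (r = 0.97, 0.97, and 0.96), SYP encoding the synaptic vesicle protein synaptophysin. Those most like OLIG2 were TFAP2D, PRDM1, and NEUROD1 (r = 0.96, 0.96, and 0.94), PRDM1 being a photoreceptor precursor factor. For NEUROG2 they were ST18, KLHL35, and RIPOR2 (r = 0.95, 0.95, and 0.94). For NEUROG1 they were HAGLR, LBX1, and NKX1-1 (r = 0.94, 0.92, and 0.92), of which HAGLR is an RNA from the HOXD cluster and LBX1 a homeobox factor of dorsal spinal cord neurons. For NHLH2 they were UNCX, POMC, and PCDH8 (r = 0.88, 0.86, and 0.86). Without LN521 replicate 1 these values were 0.70, 0.48, and 0.53 for NEUROG1 and 0.63, 0.59, and 0.58 for NHLH2, while those of the other 4 members lay between 0.93 and 0.98. NEUROD2 and OLIG1 averaged under 1 TPM in every group, and their likeness is not described.

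Related bHLH factors changed alongside on LN523 between days 22 and 32. Of 9 measured, 3 rose and 0 fell, with a median log2 fold change of 1.40 (0.0023 over all genes). ATOH7, required for retinal ganglion cells, went from 14.0 ± 14.7 to 384 ± 193 TPM (mean ± SD, n = 3), a log2 fold change of 4.96 ± 0.66 (SE, adjusted p = 1.2e-05). NEUROD1, a factor of photoreceptors and amacrine cells, went from 1.44 to 41.0 TPM on average (5.13 ± 0.80, SE, adjusted p = 0.000136), and BHLHE22 from 4.30 to 18.6 TPM (2.18 ± 0.48, SE, adjusted p = 0.0165). The same 3 genes were called on LN521, and 0 of 9 were called on LN323. On LN521, ATOH7 was the single call without replicate 1 of day 32, and ATOH7 and NEUROD1 were called without replicate 1 of day 22. Between matrices at day 32, 0 of 9 were called in each of the 3 comparisons.

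The partners and inhibitors of the proneural proteins did not pass the threshold over that interval. The E proteins TCF3, TCF4, and TCF12 summed to 333 to 476 TPM in the 18 late libraries, and 0 of 3 were called on any matrix. Of 10 ID, HES, and HEY genes, 0 were called from day 22 to day 32 on any matrix. From day 2 to day 22, 7 of these 10 rose and 2 fell on LN523, 8 rose and 2 fell on LN323, and 7 rose and 2 fell on LN521. Far more of all genes were called in that earlier step too, with 5180 higher and 4571 lower on LN523 beside 154 and 17 from day 22 to day 32.

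Of 16 known downstream genes, 7 rose and 0 fell on LN523 from day 22 to day 32, with a median log2 fold change of 1.67. They included the Notch ligand DLL4 (from 4.73 to 83.4 TPM, 3.99 ± 0.57, SE, adjusted p = 3.98e-05), the HES1 antagonist HES6 (from 30.2 to 454 TPM, 3.96 ± 0.50, SE, adjusted p = 3.7e-06), ST18 (from 0.0882 to 2.84 TPM, 4.89 ± 0.79, SE, adjusted p = 0.000222), and MYT1 (from 0.912 to 7.11 TPM, 3.01 ± 0.55, SE, adjusted p = 0.00163). On LN521, 2 of the 16 rose (0 without replicate 1 of day 32 and 2 without replicate 1 of day 22), and on LN323, 0 of 16 were called. For LN523 against LN323 at day 32 all 16 had a positive log2 fold change, with a median of 0.82 beside -0.0096 over all genes, and 0 were called.

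Neuron markers were examined beside the proneural genes. From day 22 to day 32, 1 of 10 rose on LN323 and 0 on LN521, where leaving out replicate 1 of day 22 gave 6 and leaving out replicate 1 of day 32 gave 0. On LN523, 5 of the 10 rose and 0 fell, among them the microtubule regulator STMN2 (from 18.1 to 248 TPM, 3.80 ± 0.73, SE, adjusted p = 0.00293) and the RNA-binding protein ELAVL4 (from 0.509 to 10.9 TPM, 4.53 ± 0.86, SE, adjusted p = 0.00259). The markers summed to 106 to 132 TPM at day 22 and 444 to 614 TPM at day 32 on LN523, and to 270 to 341 TPM at day 32 on LN323. On LN521 at day 32 they summed to 962 TPM in replicate 1 and to 235 and 247 TPM in replicates 2 and 3. The keratinocyte marker KRT17 also rose on LN523 (from 35.4 to 277 TPM, 2.90 ± 0.37, SE, adjusted p = 4.86e-06), as it did on LN323 (from 22.7 to 322 TPM, 3.55 ± 0.38, SE, adjusted p = 8.71e-08) and LN521 (from 11.2 to 494 TPM, 5.49 ± 0.42, SE, adjusted p = 3.18e-13), 1 of 4 markers of that list on each matrix. On LN523 the list summed to 28.9 to 82.5 TPM at day 22 and 95.2 to 610 TPM at day 32. The part of either cell type in the results for the proneural genes was not tested.

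**Figure D3:**
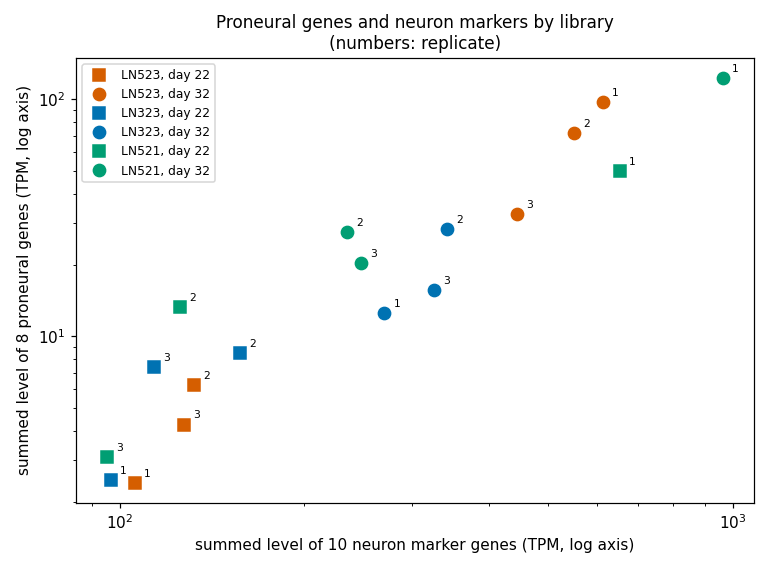
Summed level of the 8 proneural genes against the summed level of 10 neuron markers in the 18 libraries of days 22 and 32 (TPM, log axes). Squares are day 22, circles day 32, colors the matrices, and numbers the replicates. LN521 replicate 1 lies apart from the other LN521 libraries at 654 and 962 TPM of neuron markers, with 49.8 and 122 TPM of proneural genes.

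Markers of retinal cell types that the proneural genes precede were called in part over the same interval on LN523. POU4F2 of ganglion cells went from 0.541 to 22.9 TPM (5.44 ± 0.89, SE, adjusted p = 0.000313), the single call of 3 ganglion cell markers. PRDM1 went from 0.934 to 13.7 TPM (3.99 ± 0.67, SE, adjusted p = 0.000503), the single call of 4 photoreceptor precursor markers. ONECUT1 and ONECUT2 of horizontal cells rose to 8.32 and 10.1 TPM, 2 of 4 markers of horizontal and amacrine cells. TFAP2A and TFAP2B, the rest of that list, averaged 7.1 and 17.45 TPM at day 22, and together averaged less at day 32. The 4 markers summed to 10.2 to 56.7 TPM at day 22 and 16.5 to 61.5 TPM at day 32, with overlap. Of 6 retinal progenitor markers 0 were called. On LN521, POU4F2 (from 0.475 to 8.17 TPM, 4.11 ± 0.85, SE, adjusted p = 0.0105) was called over this interval too. So was PRDM1 (from 1.22 to 10.9 TPM, 3.58 ± 0.66, SE, adjusted p = 0.00287). Without LN521 replicate 1 of day 32 neither was called, and without replicate 1 of day 22 both were, along with ONECUT2.

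Since OLIG2 is also the classical factor of oligodendrocytes, that lineage's markers are given beside it. Of 7 markers measured, 0 were called on LN523 from day 22 to day 32. NKX2-2 had at most 3 counts in every library of all 9 groups and was at 0 on LN523 at days 22 and 32, and MOG summed to 8 counts over the 3 LN523 libraries of day 32. The markers together held 58.4 to 84.2 TPM at that point and 52.7 to 74.4 TPM at day 2, when OLIG2 was at or below 0.535 TPM on LN523.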

How the data were processed

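RNA-seq was performed by the authors on 27 libraries prepared from total RNA by a stranded TruSeq protocol after ribosomal RNA removal and sequenced in paired 150 bp reads. The authors aligned these to GRCh38 with Ensembl release 79 annotation using STAR 2.5.2b, counted genes with featureCounts 1.5.1, removed rRNA and mitochondrial genes, and deposited the counts, rounded and not normalized. TPM values, deposited by the authors beside them, are the counts scaled by gene length and library sum. Titles number the days 0, 20, and 30.

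Genes were matched through GENCODE 44 (43052 of 44852 with a symbol). Differential expression was tested with edgeR 4.0.16 in R 4.3.3 (TMM, quasi-likelihood F-test, genes with more than 1 count in sum, lane as block, Benjamini-Hochberg over all genes, threshold 0.05). Matrices were compared within each day over 9 libraries, and days and interactions over all 27. The standard error is the log2 fold change divided by the root of F. All 8 genes passed this filter. The biological coefficient of variation was 37.4%, 39.5%, and 44.4% at days 2, 22, and 32. The titles give the lane, which equals the replicate number. Deviations from group means correlated between lane-matched LN523 and LN323 libraries at a mean of -0.40, 0.62, and 0.71 at days 2, 22, and 32, and between LN323 and LN521 libraries at -0.11, 0.13, and 0.013.

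Alternatives were DESeq2 1.42.0, RLE normalization, filterByExpr, only the groups compared, no block, limma 3.58.1 on log2(TPM + 1) or log2(TPM + 0.1), leaving out each library, and, added after the data were seen, all fits without lane 1 and the correlations without LN521 replicate 1. The members and the gene and marker lists were chosen with earlier results of these data known. All members were named. From each other list, up to 4 genes called with a group mean of at least 1 TPM and one sign in every lane were eligible to be named, by size of change, and likeness was ranked over 18 libraries, 3 genes per member. Fold changes are given for members called or averaging at least 3 TPM in a group compared, a limit set after values were seen.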

Additional observations from a re-analysis of the deposited data

How the results depend on the processing

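Counting the 18 comparisons, the number of members called was within 1.5 times of the number reported in 104 of 141 alternatives that keep every library or drop lane 1, and in 100 of 126 that leave out 1 library. Among alternatives of the first kind, 278 log2 fold changes kept direction and side of the threshold, 45 were no longer past it, 20 newly passed it, and 9 changed sign. The cause was not tested, except that fits with fewer libraries or genes differ by construction.

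Counts of members are to be read against all genes called in the same fit. In comparisons of matrices, filterByExpr and both limma fits called 0 of all genes, and at day 22 the fits without the block called 1 and 0 of all genes against LN521, so that a count of 0 there is not particular to the members. Without lane 1 the fits against LN521 called 462 to 1747 genes at days 22 and 32. At day 32, DESeq2 called 823 of all genes for LN523 against LN323 and 799 for LN323 against LN521. From day 22 to day 32, filterByExpr called 0 of all genes on LN523 and 5 on LN521. Over that step limma on log2(TPM + 0.1) called 3 on LN523 and 17 on LN521, and limma on log2(TPM + 1) called 21 on LN521. At day 32, members called for LN523 against LN323 were 3 by DESeq2, 3 without lane 1, and 4 with only the groups compared. LN523 against LN521 gave 1 without lane 1, and LN323 against LN521 gave 1 by DESeq2 and 1 without lane 1. At day 22, LN523 against LN521 gave 0 by filterByExpr, without the replicate block, by limma with either pseudocount, without lane 1, and with only the groups compared. LN323 against LN521 gave 0 by DESeq2, filterByExpr, no replicate block, limma with either pseudocount, and without lane 1. From day 2 to day 22, LN523 gave 0 by limma with either pseudocount, 2 without lane 1, and 0 with only the groups compared, LN323 gave 0 by limma on log2(TPM + 1) and 1 on log2(TPM + 0.1), and LN521 gave 2 by each limma fit and 2 without lane 1. From day 22 to day 32, LN523 gave 0 by filterByExpr and 0 by limma on log2(TPM + 0.1), LN323 gave 3 with only the groups compared, and LN521 gave 1 by DESeq2, 1 with RLE, 1 without the replicate block, and 0 by filterByExpr and by each limma fit. The interaction of LN523 with LN323 gave 3 with only the groups compared. The replicate block changed no other count of members beyond 1.5 times.

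Signs changed for NEUROG1 in LN523 against LN521 at day 32 (-0.58 as reported, 0.22 by limma on log2(TPM + 0.1), 2.34 without lane 1, and 0.51 with only the groups compared) and for NEUROD4 there (0.42 without lane 1). In LN323 against LN521 without lane 1, NHLH1 (0.15), NEUROG2 (0.11), and NEUROG1 (1.23) changed sign at day 32, and NHLH1 (0.029) and NEUROG2 (0.74) at day 22.

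Leaving out 1 library, members called ranged from 0 to 3 for LN523 against LN521 and 0 to 1 for LN323 against LN521 at day 32. At day 22 the ranges were 0 to 1 for LN523 against LN323, 0 to 5 for LN523 against LN521, and 0 to 3 for LN323 against LN521. They were 0 to 2 on LN523, 2 to 3 on LN323, and 1 to 5 on LN521 from day 2 to day 22, and 2 to 4 on LN523 and 0 to 3 on LN521 from day 22 to day 32. Ranges of log2 fold change that crossed 0 were -2.10 to 2.81 for NEUROG1 and -0.77 to 0.68 for NEUROD4 in LN523 against LN521 at day 32, -3.58 to 0.84 for NEUROG1 in LN323 against LN521 at day 32, -3.04 to 0.081 for NEUROG2 in LN523 against LN521 and -2.20 to 0.55 in LN323 against LN521 at day 22, and -0.065 to 2.97 for NHLH1 and -5.24 to 1.80 for NEUROG1 on LN521 from day 22 to day 32.

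NEUROD4 on LN523 from day 22 to day 32 was not called by DESeq2 (adjusted p = 0.192), nor NHLH1 by limma on log2(TPM + 1) (adjusted p = 0.102). Low counts limited the comparisons at day 2, when each member but NHLH2 averaged at most 0.444 TPM in a group, and filterByExpr kept 3 of 8 members there.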
